A study of Mus musculus with 19 samples.

Results

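The effect of Smad4 loss common to both Cre lines was measured by mRNA-seq of whole vomeronasal organs (VNO) from mice at postnatal day 21, using 18 of the 19 libraries of the series. In the first line AP-2εCre, a knock-in at Tfap2e, was used to delete Smad4 in immature basal vomeronasal sensory neurons (VSNs). In the second line OMPCre, a knock-in at Omp, was used to delete it in mature apical and basal VSNs. Each line had 3 libraries of Smad4 conditional knockouts (cKO, Cre +/- with Smad4 flox/flox), 3 of Cre +/- mice without the floxed allele, and 3 labelled wild type. The last were taken as Smad4 flox/flox without Cre, the other control that the study's methods list. The study's results also speak of wild-type controls, so this reading is not certain. The 6 libraries without a cKO genotype were the controls of their line. In each line, cKO and Cre +/- mice shared the Cre allele and so a single intact copy of Tfap2e or Omp. On that reading, cKO and flox/flox mice shared the floxed Smad4 allele. All mice were labelled female. A further AP-2εCre library carries a heterozygote title and a cKO genotype label, and it was not used. Cells other than VSNs were not sorted out, so each library also holds RNA of glands, supporting cells, vessels and glia in which neither Cre was directed to be active.

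Smad4 is the common partner of the receptor-activated SMADs. When a BMP or TGF-β ligand binds its receptors, the phosphorylated SMADs join Smad4 and enter the nucleus, where the complex binds short DNA motifs and changes transcription. The VNO detects pheromones with 2 main layers of sensory neurons: apical neurons express V1r receptors with the G protein subunit Gαi2, and basal neurons express V2r receptors with Gαo. Both send axons to glomeruli of the accessory olfactory bulb, and adhesion molecules, guidance receptors and synaptic proteins take part in that wiring.

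The libraries held between 43385516 and 134042284 estimated counts (median 63096714). Every library contained Trpc2, the VSN transduction channel (50.1 to 138 CPM, the read count scaled to library size), and Gnao1 (135 to 246 CPM), Gnai2 (319 to 476 CPM) and Omp (225 to 549 CPM). The list of main olfactory neuron genes was present at 685 to 1064 CPM summed, that of glia at 533 to 864 CPM and that of immune cells at 853 to 1940 CPM. The endothelial gene Cdh5 was at 29.2 to 44.0 CPM, while Pecam1 was at 77.2 to 144 CPM in the 6 libraries named by a line code and at 183 to 1367 CPM in the 12 named by a letter, and it carried the spread of the endothelial list. Summed ribosomal protein genes also split by name, at 6966 to 9113 CPM in the code-named and 10270 to 13120 CPM in the letter-named libraries. Both forms of name occur in every genotype of each line, and the main fit does not include the form. The list of gland and secretory genes alone made up 100400 to 313400 CPM. A total of 3 control libraries stood apart. AP-2εCre flox/flox replicate 3 is labelled female and held the Y-linked transcripts Ddx3y at 43.3 and Eif2s3y at 36.1 CPM, which were at most 0.415 CPM in every other library. OMPCre flox/flox replicate 3 held the muscle actin Acta1 at 40.1 CPM. AP-2εCre +/- replicate 1 had the lowest summed vomeronasal identity genes (5790 CPM, against 6282 to 7777 elsewhere) and the highest summed sustentacular genes (8042 CPM, against 3063 to 5910 elsewhere).

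The targeted gene was measured first. Smad4 was at 66.1, 66.5 and 33.8 CPM in the AP-2εCre cKO libraries, and the lowest, median and highest of the 6 control libraries were 39.6, 57.2 and 81.0 CPM. In the OMPCre line it was at 61.9, 62.5 and 54.4 CPM in the cKO libraries against 64.8, 76.9 and 83.9 CPM in controls. The cKO and control ranges overlapped in the first line and were apart in the second, and the mean effect of log2 -0.22 did not pass the test (adjusted p = 0.749, edgeR quasi-likelihood). The floxed exon was not measured apart from the rest of the gene, and all cells of the organ contribute to the sum, so the value is a weak check of the labels. A smaller number of cells of a type and less RNA per cell cannot be told apart in these bulk libraries, here and in every result that follows.

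To find genes that moved in the same direction in both lines, the mean of the 2 line effects (cKO minus controls in each line) was tested for 19465 genes in a single fit. Of these, 18 passed at an adjusted p of 0.05, or 0.0925% of the genes tested, with 17 higher in cKO (0.0873%) and 1 lower (0.00514%). Taken singly, the AP-2εCre line had 10 called genes (0.0514%) and the OMPCre line 8 (0.0411%). The balance of directions depended on the fit: 80 genes were higher and 117 lower with DESeq2, 15 and 16 with flox/flox controls alone, 41 and 14 with Cre +/- controls alone, and 22 and 11 without AP-2εCre +/- replicate 1. The genes that rose were led by Sez6l, Syt13, Olfr464 and Unc13c, with folds of 3.63, 3.61, 3.43 and 3.28 in the mean of the lines, and included the transcription factor Nhlh2 and the V1r receptor Vmn1r1. The gene that fell was the V2r receptor Vmn2r78. A total of 16 of the 18 also had an unadjusted p under 0.05 and the same sign in each line, where 0.699% of all genes did. The exceptions were Vmn2r78, which was also called in the AP-2εCre line alone, and Olfr464, which was also called in the OMPCre line alone. In 12 of the 18 the cKO and control libraries did not overlap in either line. Among all genes, cKO and control ranges were apart and higher in cKO in both lines for 0.17%, lower for 0.0462%, and in opposite directions for 0.0154%. All 18 had the same sign against each kind of control in each line, and an unadjusted p under 0.05 in the mean effect against each kind. With flox/flox controls alone 11 of the 18 remained called, with Cre +/- controls alone 13, and in the 12 libraries named by a letter and a number alone 9. None of the genes tested passed the test of a difference between the lines (edgeR, lowest adjusted p 0.946), where 956 had an unadjusted p under 0.05 and DESeq2 called 16, 1 of them among the genes named here. Without AP-2εCre flox/flox replicate 3 and OMPCre flox/flox replicate 3 together, a setting chosen after the data were seen, 24 genes passed and 15 of the 18 were among them.

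**Figure D1:**
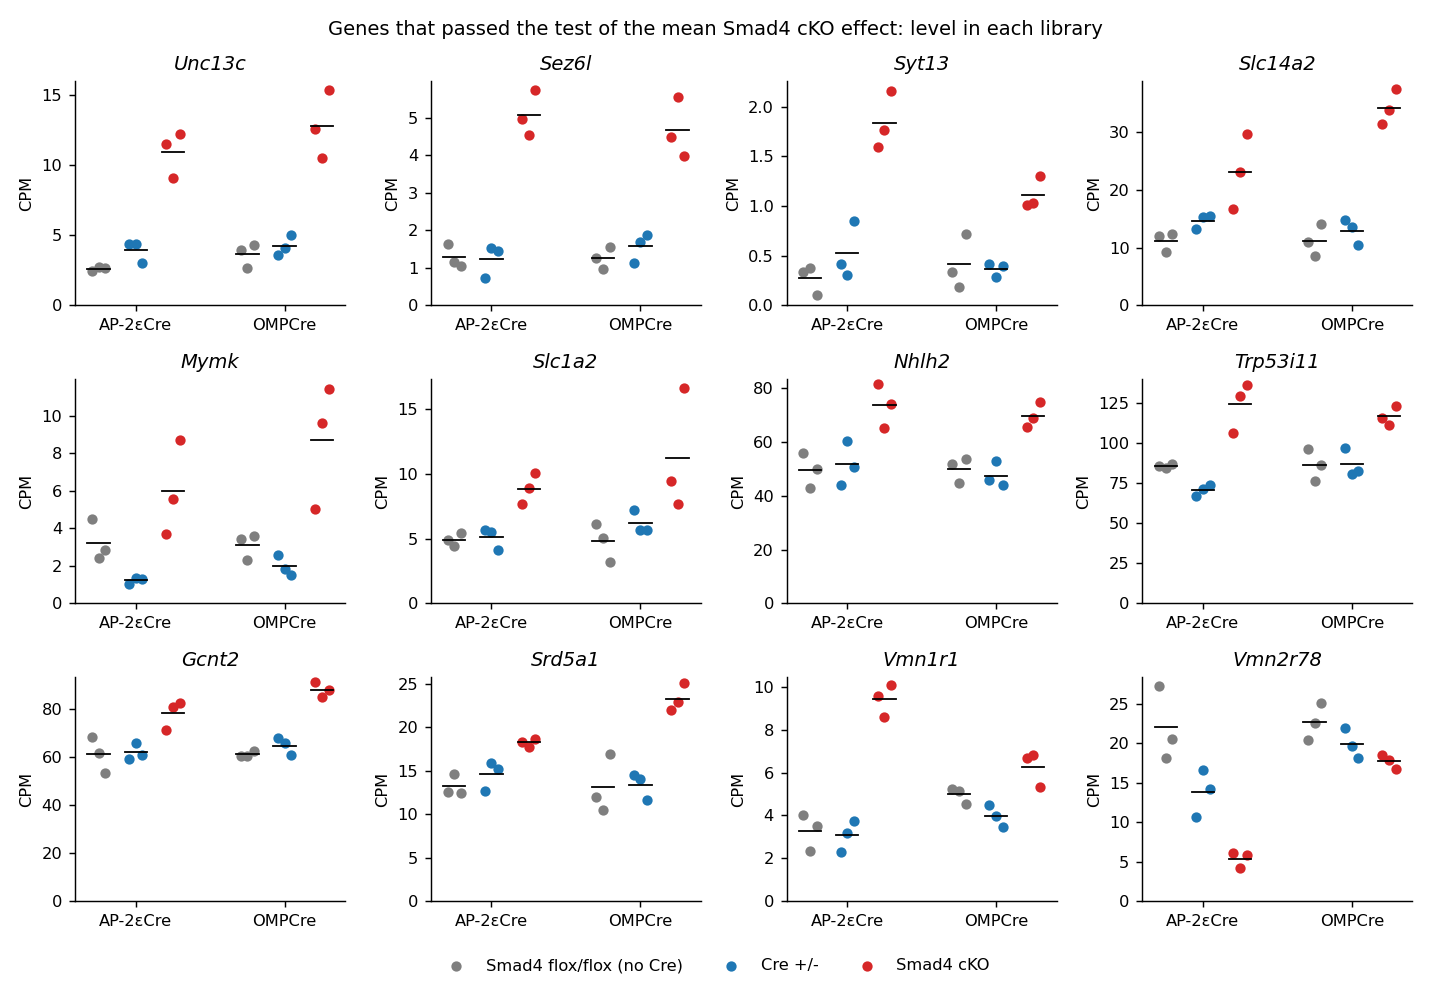
Level of 12 genes that passed the test of the mean cKO effect, in CPM (y axis, from 0) in each of the 18 libraries, by line and genotype (x axis). Each point is a library and each black line is the mean of 3 libraries. For Unc13c the cKO libraries sit at 9.06 to 15.3 CPM and the controls at 2.43 to 5.04 CPM, while the cKO points of Vmn2r78 lie far below controls in the AP-2εCre line and next to them in the OMPCre line.

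The bases before the RefSeq start (build GRCm38.p6) are shown for the 3 genes with the largest rise that have an entry, and for the gene that fell, because SMAD complexes bind DNA through short motifs. The 250 bases before the start are printed 5′ to 3′ on the strand of the gene, with matches to CAGAC or its other-strand form GTCTG in capitals. The motifs GTCTAGAC and GGCGCC were searched on both strands too. Sez6l lies at chr5:112577199-112577448 on the minus strand, Olfr464 at chr11:87915004-87915253 on the minus strand, Unc13c at chr9:73969038-73969287 on the minus strand and Vmn2r78 at chr7:86915099-86915348 on the plus strand. RefSeq and the GENCODE models used for the counts place some starts differently: the Olfr464 and Vmn2r78 windows lie inside the GENCODE gene spans (chromosome 11, 87913268 to 87920967, and chromosome 7, 86915094 to 86955312), so they are not upstream of those models.
Sez6l: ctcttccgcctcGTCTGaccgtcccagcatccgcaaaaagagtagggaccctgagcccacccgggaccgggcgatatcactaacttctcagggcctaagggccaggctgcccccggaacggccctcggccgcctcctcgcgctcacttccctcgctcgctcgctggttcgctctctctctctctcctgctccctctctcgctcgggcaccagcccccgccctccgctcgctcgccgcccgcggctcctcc
Olfr464: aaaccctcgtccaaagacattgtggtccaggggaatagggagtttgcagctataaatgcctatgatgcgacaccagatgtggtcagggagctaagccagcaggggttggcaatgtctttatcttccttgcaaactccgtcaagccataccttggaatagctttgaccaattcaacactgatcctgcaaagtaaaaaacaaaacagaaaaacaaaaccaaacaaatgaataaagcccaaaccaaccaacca
Unc13c: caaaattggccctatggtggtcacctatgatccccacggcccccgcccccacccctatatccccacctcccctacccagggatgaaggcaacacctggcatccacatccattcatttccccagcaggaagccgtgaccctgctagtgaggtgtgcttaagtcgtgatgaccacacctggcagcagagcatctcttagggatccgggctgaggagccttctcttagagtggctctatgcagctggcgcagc
Vmn2r78: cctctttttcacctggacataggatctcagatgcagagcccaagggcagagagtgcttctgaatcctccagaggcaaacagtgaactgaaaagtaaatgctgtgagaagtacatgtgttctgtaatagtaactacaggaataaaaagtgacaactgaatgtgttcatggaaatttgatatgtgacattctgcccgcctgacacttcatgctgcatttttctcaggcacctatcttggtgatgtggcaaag
Only the Sez6l window held a match, a single GTCTG that begins 238 bases before the start. CAGAC or GTCTG occurs in 42.2% of the 32851 promoter windows of the same length, GGCGCC in 9.59% and GTCTAGAC in 0.167%. The Sez6l window was 69.6% G and C, that of Unc13c 58.8%, that of Olfr464 43.6% and that of Vmn2r78 43.2%.

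The first group of called genes belongs to neurotransmitter release and neuronal surface contact. Unc13c (chromosome 9, 73479422 to 73968966, minus strand, GRCm38) encodes Munc13-3, which primes synaptic vesicles for fusion. It was at 11.5, 9.06 and 12.2 CPM in the AP-2εCre cKO libraries, against a lowest, median and highest control of 2.42, 2.88 and 4.39 CPM. OMPCre cKO libraries held 12.6, 10.5 and 15.3 CPM against 2.69, 4.04 and 5.04 CPM in controls. Every cKO library was above every control library of its line. The mean effect was 3.28-fold (log2 1.72 ± 0.15 (SE), adjusted p = 3.05e-05), and the line effects were 1.74 in the AP-2εCre line and 1.69 in the OMPCre line. The effect was 1.94 against flox/flox controls and 1.53 against Cre +/- controls.

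Sez6l (chromosome 5, 112419151 to 112577185, minus strand) encodes a neuronal transmembrane protein with CUB and sushi domains. It was at 4.96, 4.54 and 5.72 CPM in AP-2εCre cKO against 0.739, 1.30 and 1.64 CPM in controls. OMPCre cKO libraries were at 4.48, 5.56 and 3.97 CPM against 0.982, 1.41 and 1.89 CPM. The groups did not overlap in either line, and even the lowest cKO library stood well above the highest control. The mean effect was 3.63-fold (log2 1.86 ± 0.17 (SE), adjusted p = 4.88e-05), with 2.0 in the AP-2εCre line and 1.72 in the OMPCre line.

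Syt13 (chromosome 2, 92915098 to 92956058, plus strand) encodes synaptotagmin XIII, an atypical member of the vesicle protein family. Its level was low, at 1.59, 1.77 and 2.16 CPM in AP-2εCre cKO against 0.108, 0.358 and 0.847 CPM in controls. In the OMPCre line it was at 1.01, 1.03 and 1.30 CPM against 0.182, 0.364 and 0.722 CPM. The groups were again apart in both lines, although the counts behind the values were 64 to 248 in cKO libraries and only 5 to 48 in controls. The mean effect was log2 1.85 ± 0.32 (SE), adjusted p = 0.0288, or 3.61-fold. The study tested these same libraries and names Unc13c, Syt13, Slc1a2 and Mymk among the genes it drew from them, so the directions given here are not independent evidence.

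Slc1a2, which encodes the glutamate transporter GLT-1, was at 7.67, 8.89 and 10.1 CPM in AP-2εCre cKO against 4.17, 5.17 and 5.68 CPM. In the OMPCre line it was at 9.45, 7.70 and 16.7 CPM in cKO against 3.22, 5.68 and 7.20 CPM. The groups were apart in both lines, with the highest value in a single OMPCre cKO library (log2 0.93 ± 0.16 (SE), adjusted p = 0.0278). GLT-1 is also an astroglial protein. Of the 17 glia genes tested, 0 were higher and 2 (11.8%, Mbp and Erbb3) lower at an unadjusted p under 0.05. Over all genes, 4.37% were higher and 5% lower. The defining glial marker Sox10 was at 24.9 to 34.9 CPM in cKO libraries and 24.1 to 41.4 CPM in controls. The part of glia in the Slc1a2 result was not tested.

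The second group holds a regulator of neuronal differentiation and an apical receptor. Nhlh2, a basic helix-loop-helix transcription factor of differentiating neurons, was at 81.6, 65.3 and 74.4 CPM in AP-2εCre cKO against 42.8, 50.4 and 60.5 CPM in controls. The OMPCre cKO libraries were at 65.8, 68.9 and 74.8 CPM against 44.1, 48.7 and 53.6 CPM. No library overlapped, and the line effects were nearly equal, 0.54 in the AP-2εCre line and 0.52 in the OMPCre line (log2 0.53 ± 0.075 (SE), adjusted p = 0.00545).

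Vmn1r1 (chromosome 1, 182154704 to 182164486, minus strand), a V1r receptor gene, was at 9.58, 8.57 and 10.1 CPM in AP-2εCre cKO against 2.29, 3.35 and 4.04 CPM, and at 6.69, 6.83 and 5.31 CPM in OMPCre cKO against 3.46, 4.53 and 5.24 CPM. The groups were apart in both lines, but by a wide margin in the first and a narrow one in the second, with line effects of 1.56 in the AP-2εCre line and 0.49 in the OMPCre line (mean log2 1.02 ± 0.13 (SE), adjusted p = 0.00183). The difference between the lines had an unadjusted p of 0.00086 in the edgeR fit and did not pass over all genes.

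Vmn2r78 (chromosome 7, 86915094 to 86955312, plus strand), a V2r receptor gene and the only gene that fell in this fit, was at 6.11, 4.21 and 5.85 CPM in AP-2εCre cKO against 10.7, 17.4 and 27.2 CPM. In the OMPCre line it was at 18.6, 17.8 and 16.8 CPM against 18.1, 21.2 and 25.0 CPM, and the groups overlapped. The mean effect (log2 -1.0 ± 0.15 (SE), adjusted p = 0.00914) was carried by the first line: the effects were -1.73 in the AP-2εCre line and -0.27 in the OMPCre line, and the OMPCre effect alone had an unadjusted p of 0.216 in edgeR. Olfr464, an odorant receptor gene, showed the reverse imbalance, at 1.69, 3.06 and 2.61 CPM in AP-2εCre cKO against 0.724, 1.13 and 2.49 CPM and 3.93, 7.46 and 8.16 CPM in OMPCre cKO against 0.332, 0.994 and 1.52 CPM (log2 1.78 ± 0.31 (SE), adjusted p = 0.0288). Its groups were apart only in the OMPCre line, the line in which 2.33% of all genes were apart, against 4.94% in the AP-2εCre line. V1r, V2r and odorant receptor genes have near-identical relatives, and how reads were shared among copies makes single receptor values uncertain.

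The third group holds transporters, enzymes and membrane proteins. Slc14a2, which encodes the urea transporter UT-A, was at 16.6, 23.1 and 29.7 CPM in AP-2εCre cKO against 9.28, 12.8 and 15.4 CPM, and at 31.4, 33.9 and 37.4 CPM in OMPCre cKO against 8.6, 12.3 and 14.8 CPM. The groups were apart in both lines (2.25-fold, log2 1.17 ± 0.13 (SE), adjusted p = 0.00055). The gene lies on chromosome 18, 4.44 Mb from Smad4. Its mean effect was 1.33 against the controls taken as flox/flox, which would carry the same floxed chromosome, and 1.03 against Cre +/- controls. Of the 104 genes tested that start within 10 Mb of Smad4, 3 (2.88%) had an unadjusted p under 0.05 with the same sign in each line, against 0.699% of all genes. The 3 are Slc14a2 itself, Txnl4a (log2 0.26) and Hsbp1l1 (log2 -0.59), so the other members moved in opposite directions.

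Mymk (chromosome 2, 27061636 to 27072179, minus strand) encodes myomaker, a membrane protein required for myoblast fusion. It was at 3.73, 5.57 and 8.70 CPM in AP-2εCre cKO against 1.03, 1.89 and 4.48 CPM, and at 5.04, 9.60 and 11.4 CPM in OMPCre cKO against 1.53, 2.44 and 3.61 CPM (log2 1.60 ± 0.29 (SE), adjusted p = 0.0423). A cKO library overlapped the controls in the AP-2εCre line, and the effect was 1.18 against flox/flox and 2.21 against Cre +/- controls. Of the 18 muscle and blood genes tested, 2 (Acta2 and Tagln, smooth muscle genes) had higher values and 1 (Hba-a1) a lower value at an unadjusted p under 0.05. These are 11.1% and 5.56%, against 4.37% and 5% of all genes. The median of the list was 0.29 in the AP-2εCre line and -0.68 in the OMPCre line. The summed level of that list was 4576 to 5359 CPM in AP-2εCre cKO against 2885 to 5097 CPM in controls, and 5072 to 6697 CPM in OMPCre cKO against 4600 to 8276 CPM. Its part in the Mymk result was not tested.

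Srd5a1, the steroid 5α-reductase that converts testosterone to dihydrotestosterone, was at 18.3, 17.8 and 18.7 CPM in AP-2εCre cKO against 12.5, 13.7 and 15.9 CPM, and at 22, 22.9 and 25.1 CPM in OMPCre cKO against 10.5, 13 and 16.9 CPM. All cKO libraries were above all controls of their line (log2 0.60 ± 0.087 (SE), adjusted p = 0.00626). Trp53i11, a p53-inducible gene, was at 107, 129 and 137 CPM against 67.3, 79.3 and 86.8 CPM in the AP-2εCre line. The OMPCre values were 116, 111 and 123 CPM against 76.6, 84.9 and 97.1 CPM, again without overlap (log2 0.55 ± 0.071 (SE), adjusted p = 0.00205).

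Tmem104, a multi-pass membrane protein gene, had line effects of 0.51 in the AP-2εCre line and 0.50 in the OMPCre line and no overlap in either line (log2 0.50 ± 0.076 (SE), adjusted p = 0.00914). Tmem255a, on the X chromosome, was at 9.51, 7.32 and 6.41 CPM in AP-2εCre cKO against 2.28, 3.62 and 4.0 CPM and at 6.89, 7.09 and 6.99 CPM in OMPCre cKO against 3.14, 4.13 and 6.96 CPM. In the second line the highest control, flox/flox replicate 2, lay within the cKO range (log2 0.93 ± 0.15 (SE), adjusted p = 0.0188). Another 2 called genes had smaller effects at higher levels and are named after their values were seen. Gcnt2, which encodes the enzyme that branches I antigen glycans on the cell surface, was at 71.5, 81.2 and 82.5 CPM in AP-2εCre cKO against 53.5, 61.5 and 68.7 CPM, and at 91.6, 85.1 and 88.0 CPM in OMPCre cKO against 60.5, 61.7 and 68.2 CPM, without overlap (log2 0.41 ± 0.053 (SE), adjusted p = 0.00183). Pla2g16, a phospholipase gene, rose with line effects of 0.36 in the AP-2εCre line and 0.50 in the OMPCre line (log2 0.43 ± 0.074 (SE), adjusted p = 0.0278). In the exact permutation test over libraries (cKO labels permuted within each line, two-sided, 7056 splits), 11 of these 16 genes had the smallest p the design can give, 0.00014, and the highest was 0.00071. They were chosen on the same libraries.

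**Figure D2:**
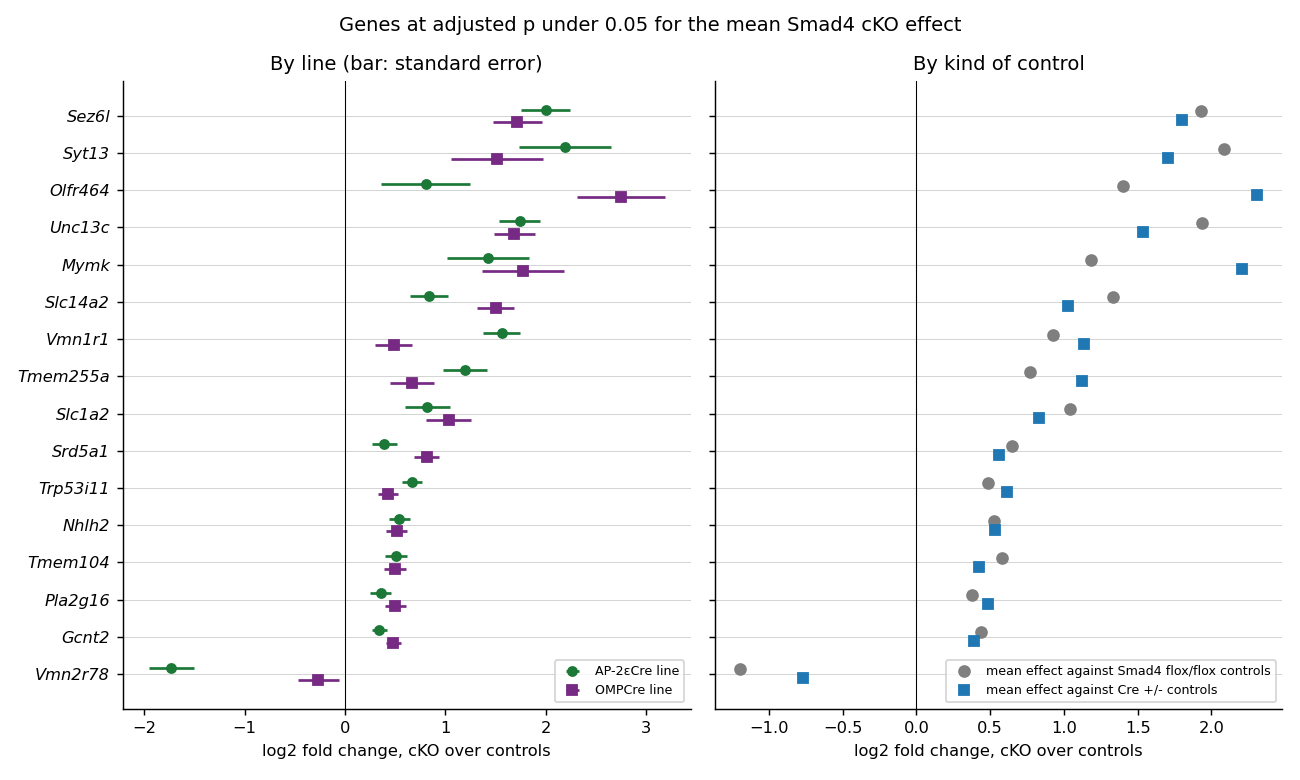
Log2 fold change of cKO over controls (x axis) for 16 genes (rows) at an adjusted p under 0.05 for the mean effect. Left: the AP-2εCre line (circles) and the OMPCre line (squares), with standard errors as bars. Right: the mean effect against each kind of control. All 15 genes that rose lie to the right of 0 in both lines and against both controls, from log2 0.41 for Gcnt2 to 1.86 for Sez6l in the mean effect.

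The calls differed in how far they rested on single libraries. Unc13c, Sez6l, Slc14a2 and Trp53i11 passed in every alternative analysis and without each library in turn, and 8 of the 16 passed without each library. Leaving out OMPCre cKO replicate 3 ended the calls of Olfr464, Mymk, Tmem255a, Slc1a2, Tmem104, Vmn2r78, Syt13 and Pla2g16, and 8 genes remained called. Of the 18 fits that left out 1 library each, Mymk passed in 5, Syt13 in 6, Pla2g16 in 9, Olfr464 in 10, Slc1a2 in 11, Tmem255a in 14, Tmem104 in 17 and Vmn2r78 in 17. Tmem104 and Vmn2r78 lost their calls only without OMPCre cKO replicate 3, and Tmem255a also without AP-2εCre cKO replicates 1 and 2 and OMPCre cKO replicate 2. Controls of both lines decided the calls of Mymk, Syt13, Pla2g16, Olfr464 and Slc1a2 too. With counts rebuilt from TPM and gene length, Unc13c, Sez6l, Slc14a2, Trp53i11, Nhlh2 and Vmn2r78 remained.

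A wider set was described by the sign and the unadjusted p in each line. A total of 97 genes (0.498%) were higher in both lines and 39 (0.2%) lower, each with an unadjusted p under 0.05 in both, while 27 (0.139%) had opposite signs. Of the 136 that moved the same way, 131 kept their sign against each kind of control in each line. The median log2 effect was 0.37 for the 97 and -0.66 for the 39. Of the 39, 13 had a mean under 1 CPM and 19 were at log2 -1 or below. Of the 97, 2 had a mean under 1 CPM and 8 were at log2 1 or above. The medians are thus not taken at like levels of expression. Across all genes tested, the 2 line effects had a Pearson correlation of 0.181 and a Spearman correlation of 0.146, and 56.7% of genes had the same sign. These are correlations across genes, which are not independent replicates, and the 2 lines share no libraries.

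**Figure D3:**
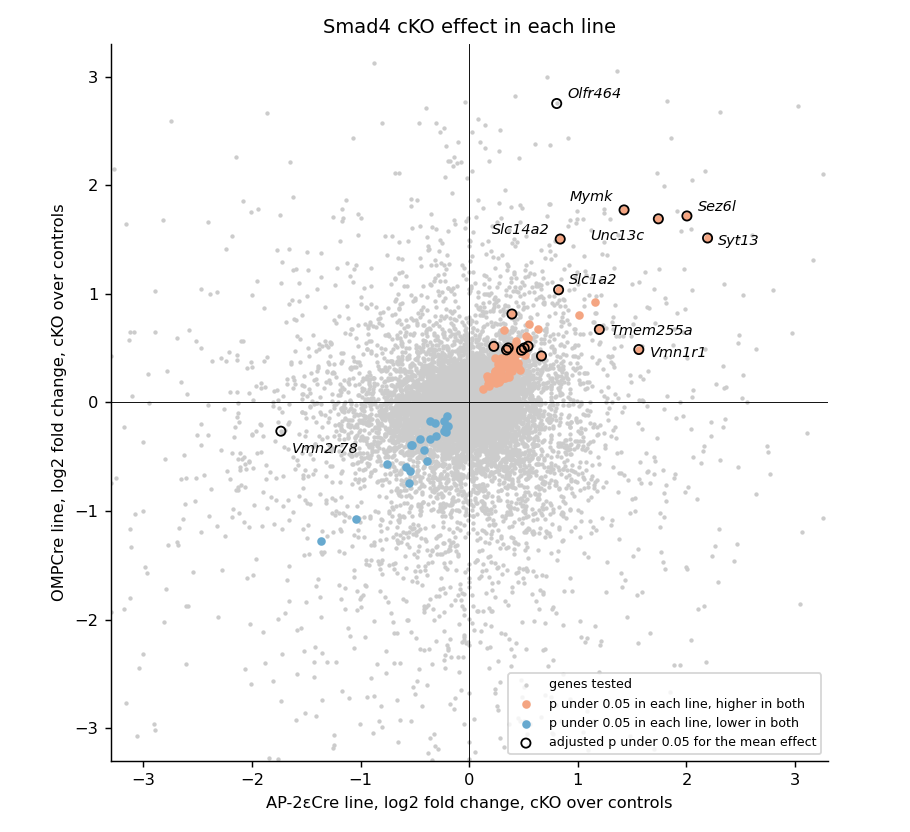
Log2 fold change of cKO over controls in the AP-2εCre line (x axis) and the OMPCre line (y axis). Grey points are genes tested, orange and blue points the 97 and 39 genes with an unadjusted p under 0.05 and the same sign in each line, and black rings the genes at an adjusted p under 0.05 for the mean effect. A total of 393 genes lie outside the axes, which end at log2 3.3. Unc13c, Sez6l, Syt13 and Mymk sit near the diagonal at the upper right, and Olfr464 and Vmn2r78 lie away from it, toward an axis.

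Synaptic and adhesion genes made up a part of the 97. Of 60 genes of presynaptic release machinery tested, 2 were called higher (0.0873% of all genes were) and 4 belonged to the 97, among them Unc13c, Syt13 and Syt11. Syt11, another atypical synaptotagmin gene, was at 318, 314 and 361 CPM in AP-2εCre cKO against 204, 287 and 302 CPM, and at 344, 351 and 375 CPM in OMPCre cKO against 257, 306 and 334 CPM. Its groups were apart in both lines (log2 0.25, edgeR adjusted p = 0.284). The list's median log2 effect was 0.06, against -0.01 for all genes tested, and 6 of its genes were higher and 2 lower at an unadjusted p under 0.05. The corresponding shares of all genes are 4.37% and 5%.

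Of 80 adhesion genes tested, 1 was called (Sez6l) and 5 belonged to the 97: Sez6l, Tenm2, Ncam1, Sdk1 and Dscaml1. At an unadjusted p under 0.05, 17 (21.2%) were higher and 1 (1.25%) lower, against 4.37% and 5% of all genes. The median was 0.11 (0.18 in the AP-2εCre line and 0.09 in the OMPCre line). Tenm2, which encodes teneurin-2, was at 82.1, 85.5 and 112 CPM in AP-2εCre cKO against 53.6, 78.6 and 82.9 CPM, and at 124, 111 and 122 CPM in OMPCre cKO against 62.9, 74.2 and 92.0 CPM. Its groups were apart in the OMPCre line and overlapped in the other, and it missed the test (log2 0.49, edgeR adjusted p = 0.0652). Ncam1, the neural cell adhesion molecule, was at 280.2, 422 and 470.1 CPM in AP-2εCre cKO against 237, 302 and 388 CPM and at 368, 394 and 375 CPM in OMPCre cKO against 271, 300.4 and 315 CPM (log2 0.34, edgeR adjusted p = 0.33). Sdk1, a sidekick adhesion molecule, was at 112, 116 and 138 CPM against 75.8, 104 and 111 CPM and at 121, 125 and 136 CPM against 91.9, 103 and 115 CPM, apart in both lines (log2 0.30, edgeR adjusted p = 0.212). Of 58 clustered protocadherin genes, 8 were higher and 1 lower at an unadjusted p under 0.05, with a median of 0.1, and none belonged to the 97. The Kirrel adhesion genes named by the study did not pass the test (edgeR): Kirrel2 had log2 0.05 (adjusted p = 0.982) and Kirrel3 log2 0.01 (adjusted p = 0.996).

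The counts of this paragraph are set beside the 4.37% of all genes that were higher and the 5% lower at an unadjusted p under 0.05. Of 37 postsynaptic scaffold and glutamate receptor genes, 7 (18.9%) were higher and 1 (2.7%) lower at that p. None was called, and Grin2c and Homer2 belonged to the 97. Grin2c, the NMDA receptor subunit GluN2C, was at 8.84, 7.20 and 8.98 CPM in AP-2εCre cKO against 2.46, 3.80 and 5.80 CPM, and at 5.30, 6.25 and 9.08 CPM in OMPCre cKO against 2.76, 3.89 and 4.94 CPM. The groups were apart in both lines, and the test was narrowly missed (log2 0.91, edgeR adjusted p = 0.0578). Homer2, a scaffold of metabotropic glutamate receptors, had log2 0.44 (edgeR adjusted p = 0.19). With flox/flox controls alone it was 0.63 and called (edgeR adjusted p = 0.0158), and with Cre +/- controls alone it was 0.28 (adjusted p = 0.344). Of 76 ion channel genes, 11 (14.5%) were higher and 2 (2.63%) lower, and none of the list belonged to the 97. Of 71 axon guidance genes, 10 (14.1%) were higher and 4 (5.63%) lower and Nrp2 belonged to the 97, while Robo2 had log2 0.27 (edgeR adjusted p = 0.451). Among other study-named genes, Dlg2, a postsynaptic density scaffold, had log2 0.33 (adjusted p = 0.227), Gap43, a growth cone protein, 0.24 (adjusted p = 0.661), Adcy3, an adenylyl cyclase, -0.03 (adjusted p = 0.986, 0.24 in the AP-2εCre line and -0.29 in the OMPCre line), Plcb2, a phospholipase C, 0.08 (adjusted p = 0.903) and Ano1, a chloride channel, -0.28 (adjusted p = 0.235, -0.42 in the AP-2εCre line), all by edgeR, and none passed in the mean effect. The OMPCre effect on Adcy3 was 0.009 against flox/flox and -0.54 against Cre +/- controls. The study names several of these genes for a single line, and the mean of both lines is a different comparison. Its Gap43 result is a count of immunoreactive cells in sections, with the AP-2εCre mice at other ages, not RNA of the whole organ.

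Genes of neurogenesis and immature neurons had the highest share of members with a higher value among the 30 lists. Of 34 tested, 14 (41.2%) were higher and 0 lower at an unadjusted p under 0.05, where 4.37% of all genes were higher, and 1 (Nhlh2) was called. The median was 0.17, with 0.26 in the AP-2εCre line and 0.13 in the OMPCre line, and 29 of the 34 values were positive. Nhlh2, Ebf3, Stmn4 and Elavl3 belonged to the 97. Ebf3, a transcription factor of olfactory neurons, was at 173, 194 and 203 CPM in AP-2εCre cKO against 126, 155 and 183 CPM, and at 189, 198 and 195 CPM in OMPCre cKO against 135, 156 and 171 CPM (log2 0.30, edgeR adjusted p = 0.19). Stmn4, a microtubule-destabilising stathmin, was at 40.2, 51.2 and 51.6 CPM against 29.7, 36.0 and 44.4 CPM and at 57.8, 60.0 and 48.1 CPM against 34.5, 41.6 and 50.5 CPM (log2 0.39, edgeR adjusted p = 0.175). Elavl3, a neuronal RNA-binding protein, was apart in both lines, though barely in the AP-2εCre line, at 247, 244 and 268 CPM against 155, 217 and 244 CPM and 270.1, 283 and 288 CPM against 199, 241 and 253 CPM (log2 0.25, edgeR adjusted p = 0.317). The summed list was at 2818 to 3498 CPM in AP-2εCre cKO against 2161 to 2908 CPM in controls and at 2863 to 3121 CPM in OMPCre cKO against 2505 to 2928 CPM, so the groups overlapped in both lines. The lowest AP-2εCre control was again +/- replicate 1, and the other 5 were at 2645 to 2908 CPM. Without that library, where 3.88% of all genes were higher at an unadjusted p under 0.05, 14 of the genes were higher and 0 lower with a median of 0.15, the adhesion list had 18 higher and 1 lower with a median of 0.12, and the presynaptic list had 6 higher and 2 lower with a median of 0.03. In contrast, none of the 39 cell cycle genes had an unadjusted p under 0.05 in the mean effect, and their medians went opposite ways, 0.34 in the AP-2εCre line and -0.37 in the OMPCre line. Mki67, a proliferation marker, was at 125, 107 and 122 CPM in AP-2εCre cKO against 47.9, 75.6 and 107 CPM, and at 64.0, 74.2 and 43.7 CPM in OMPCre cKO against 62.9, 85.9 and 110.1 CPM, with a mean effect of 0.06 (edgeR adjusted p = 0.966). The study counted cells with Ki67 protein in sections, with the AP-2εCre mice at another age, which is a different measure.

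Receptor genes were described by family. Over all genes, 4.37% were higher and 5% lower at an unadjusted p under 0.05 in the main fit. Of 208 V1r genes tested, 39 (18.8%) were higher and 4 lower at an unadjusted p under 0.05, and 164 had a positive value. The median was 0.19, and it was 0.19 and 0.17 in the 2 lines. Vmn1r1 was called, and Vmn1r32, Vmn1r47, Vmn1r22 and the pseudogene Vmn1r-ps15 also belonged to the 97. Vmn1r47 was at 33.7, 32.6 and 40.7 CPM in AP-2εCre cKO against 22.9, 29.9 and 37.2 CPM, and at 29.3, 28.5 and 30.2 CPM in OMPCre cKO against 21.4, 23.0 and 24.3 CPM, with no overlap in the OMPCre line (log2 0.31, edgeR adjusted p = 0.212). The apical G protein gene Gnai2 was at 418, 436 and 476 CPM against 319, 368 and 410.1 CPM and at 425, 444 and 367 CPM against 342, 366 and 378 CPM (log2 0.23, edgeR adjusted p = 0.218), and it too belonged to the 97. Of 165 V2r genes, 4 were higher and 28 (17%) lower. Their median was -0.17, but -0.37 in the AP-2εCre line and 0.1 in the OMPCre line, and against Cre +/- controls alone it was 0.01. Their sum was 2424 to 3291 CPM in AP-2εCre cKO, 2175 CPM in AP-2εCre +/- replicate 1 and 3927 to 5189 CPM in the other 5 controls of that line. Without that library, 43 V2r genes were lower at an unadjusted p under 0.05, 10 were called lower, and the median was -0.23. In the same fit 768 of 19386 genes (3.96%) were lower at an unadjusted p under 0.05, and 11 were called lower. Vmn2r5 was lower in both lines, at 0.34, 1.29 and 0.543 CPM in AP-2εCre cKO against 0.57, 7.54 and 19.1 CPM, and at 5.19, 6.30 and 8.27 CPM in OMPCre cKO against 9.71, 19.2 and 25.8 CPM. It overlapped the widely spread controls of the first line and missed the test (log2 -2.53, edgeR adjusted p = 0.0865), though it was called with flox/flox controls alone (log2 -2.96, edgeR adjusted p = 0.00382). Of 9 H2-Mv genes, which are co-expressed with V2r receptors, 1 was higher and 3 lower, with a median of -0.66 in the AP-2εCre line and 0.07 in the OMPCre line. Of 550 odorant receptor genes 7 (1.27%) were higher and 24 (4.36%) lower, each below the share of all genes. Their median was -0.09, but 0.08 against flox/flox and -0.16 against Cre +/- controls. Of 7 formyl peptide receptors 1 was higher and 0 lower.

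Of 35 genes of vomeronasal transduction and identity, 10 (28.6%) were higher and 2 (5.71%) lower at an unadjusted p under 0.05. Over all genes, 4.37% were higher and 5% lower. The list had a median of 0.05, and Gnai2, Nrp2 and Nsg1 belonged to the 97. Omp was at 463, 449 and 549 CPM in AP-2εCre cKO against 293, 439 and 473 CPM, and at 253, 238 and 287 CPM in OMPCre cKO against 225, 277 and 474 CPM. The OMPCre controls differed by genotype, with 397 ± 85.1 CPM (SD, n = 3) in flox/flox and 237 ± 11.7 CPM in Cre +/- mice, which have a single intact Omp copy as the cKO mice do. The OMPCre effect on Omp was -0.61 against flox/flox and 0.13 against Cre +/- controls, and the mean effect of -0.03 over pooled controls of both lines did not pass (edgeR adjusted p = 0.988). Tfap2e, the locus of the other knock-in, was at 15.4 ± 1.3 CPM in AP-2εCre flox/flox controls, 7.5 ± 1.82 CPM in Cre +/- controls and 11.2 ± 1.23 CPM in cKO (SD, n = 3 each). Its mean effect was 0.13 over pooled controls (edgeR adjusted p = 0.894), -0.14 against flox/flox and 0.48 against Cre +/- controls (edgeR adjusted p = 0.102).

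Canonical targets and components of the pathway are set beside the 4.37% of all genes that were higher and the 5% that were lower at an unadjusted p under 0.05. None of the 33 canonical SMAD target genes tested was called (edgeR), 3 (9.09%) were higher and 1 (3.03%) lower at that p, and the median was 0.04. Id4, an inhibitor of differentiation and a BMP target, was at 39.4, 33.9 and 29.9 CPM in AP-2εCre cKO against 35.6, 38.3 and 44.7 CPM, and at 34.9, 29.7 and 32.8 CPM in OMPCre cKO against 34.4, 38.3 and 41.4 CPM (log2 -0.22, edgeR adjusted p = 0.317). It was lower in both lines, with overlapping libraries. Pmepa1, a TGF-β-induced inhibitor of SMAD signalling, was at 80.4, 64.5 and 63.5 CPM against 48.8, 55.1 and 60.1 CPM in the AP-2εCre line and at 62.3, 74.6 and 69.4 CPM against 50.8, 58.0 and 64.6 CPM in the OMPCre line (log2 0.30, edgeR adjusted p = 0.135). Id1, Id2 and Id3 had values of -0.18, -0.21 and -0.09, and the inhibitory Smad6 and Smad7 had 0.02 and 0.06. Of 36 ligand, receptor and SMAD genes, 1 (2.78%) was higher and 2 (5.56%) lower, with a median of 0.05.

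Lower in both lines were few well-expressed genes. Of the 39, 13 had a mean under 1 CPM. Among those above it, Arhgap29, a GTPase-activating protein, was at 59.0, 49.0 and 47.2 CPM in AP-2εCre cKO against 61.3, 66.3 and 69.9 CPM, and at 59.6, 57.6 and 50.5 CPM in OMPCre cKO against 60.9, 62.8 and 66.7 CPM. The groups were apart in both lines (log2 -0.27, edgeR adjusted p = 0.0655). Ptger3, the prostaglandin E receptor EP3, was at 3.49, 2.70 and 2.60 CPM against 3.60, 4.37 and 5.07 CPM and at 3.09, 2.32 and 2.71 CPM against 3.60, 4.40 and 5.87 CPM, also without overlap (log2 -0.65, edgeR adjusted p = 0.0687). Itga6, the laminin receptor subunit integrin α6, and Grhl1, an epithelial transcription factor, had log2 -0.25 and -0.59 and no overlap in either line (edgeR adjusted p = 0.212 and 0.146). Msln, which encodes mesothelin, had log2 -0.46 (edgeR adjusted p = 0.11). Over the alternative analyses Itga6 ranged from -0.27 to -0.10 and Msln from -0.81 to -0.30, and with Cre +/- controls alone Grhl1 was called (log2 -0.57, edgeR adjusted p = 0.0439). All 5 were chosen after their values were seen. The most negative fitted values belonged to genes that had 0 counts in some control libraries too. Mmp20, an enamel protease, had 0 counts in all 6 cKO libraries, which allows up to 3 counts in each (0.0214 to 0.0549 CPM), and in 5 of 12 controls, with a highest control count of 72. Amelx, which encodes the enamel protein amelogenin, had at most 84 counts in a cKO library and 0 in 2 controls, with a median of 235 and a highest of 5609. No fold is given for either.

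**Figure D4:**
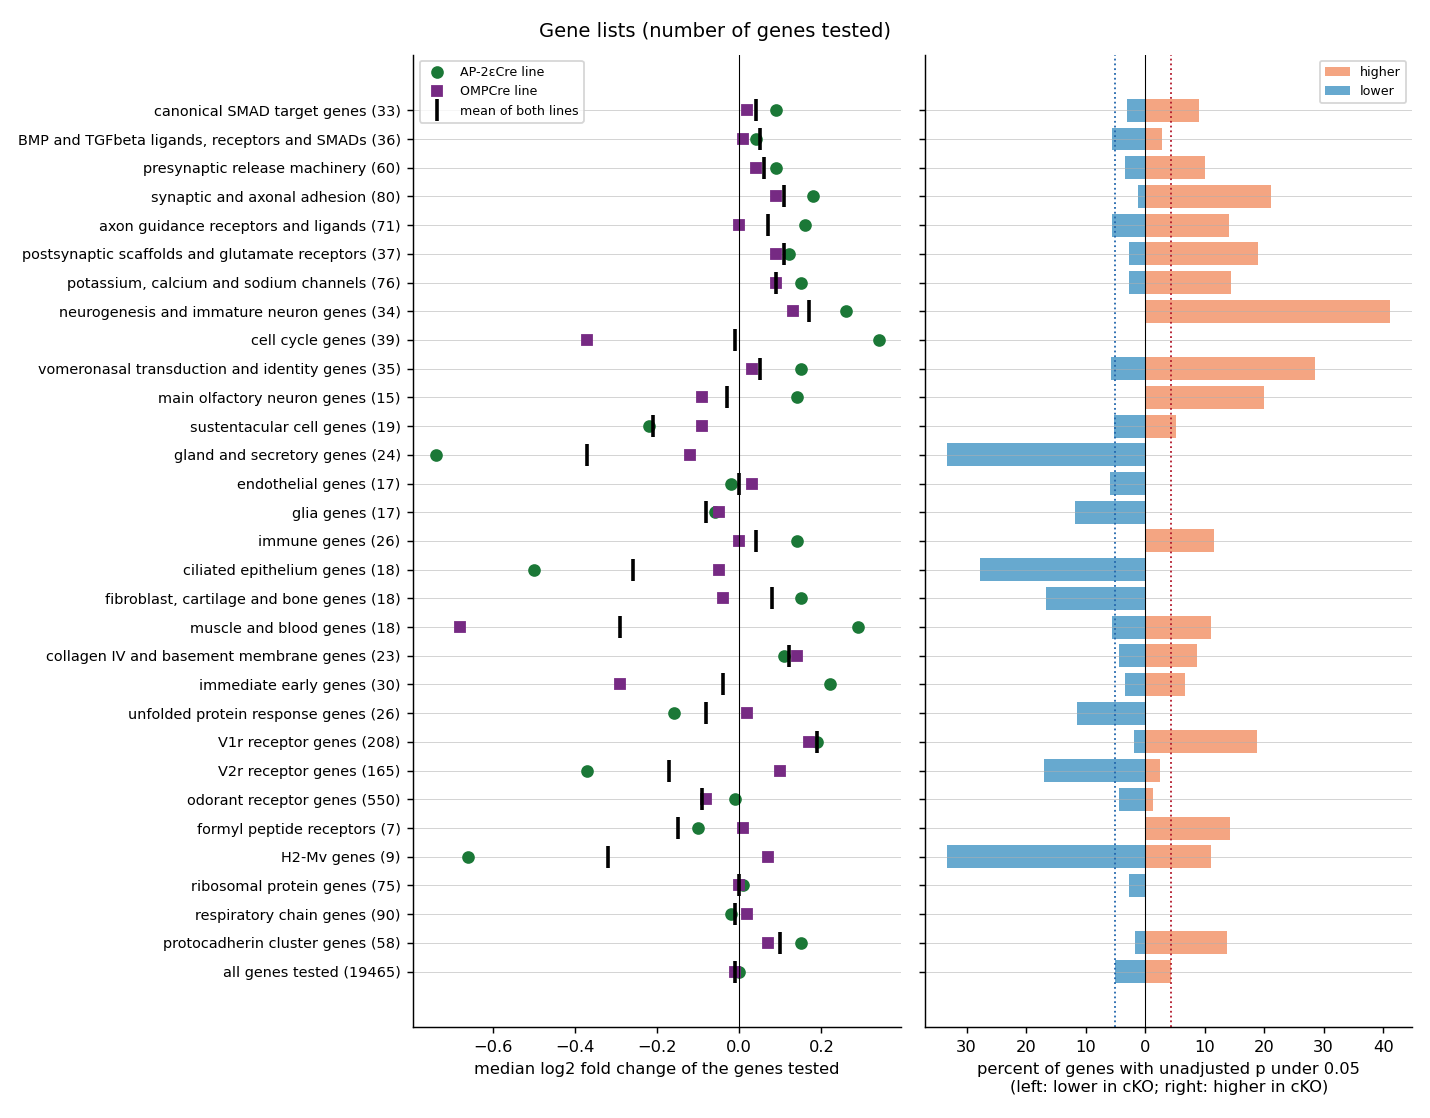
Gene lists (rows, with the number of genes tested). Left: median log2 fold change of cKO over controls in the AP-2εCre line (circles), the OMPCre line (squares) and the mean of both (bars). Right: percent of the genes with an unadjusted p under 0.05 for the mean effect, higher to the right and lower to the left, with dotted lines at the shares of all genes tested (4.37% and 5%). Neurogenesis genes reach 41.2% higher with 0 lower, and gland and ciliated genes have 0 higher.

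Gland and ciliated genes are given by line, and the difference between lines was not tested for a list. Over all genes, 4.37% were higher and 5% lower at an unadjusted p under 0.05. Of 24 gland and secretory genes tested, 0 were higher and 8 (33.3%) lower at an unadjusted p under 0.05, with medians of -0.74 in the AP-2εCre line and -0.12 in the OMPCre line. Their summed level was 100400 to 150200 CPM in AP-2εCre cKO against 165000 to 313400 CPM in controls, without overlap, and 180700 to 192300 CPM in OMPCre cKO against 120000 to 280400 CPM, within the control range. Of 18 ciliated epithelium genes, 0 were higher and 5 lower (medians -0.5 and -0.05), and all 18 mean values were negative. Their defining marker Foxj1 was at 54.8 to 106 CPM in AP-2εCre cKO against 77 to 134 CPM, and at 57.1 to 123 CPM in OMPCre cKO against 50.4 to 130 CPM. The summed ciliated list was 627 to 1043 CPM in AP-2εCre cKO against 1040 to 1359 CPM in controls. Of 19 sustentacular genes, 1 was higher and 1 lower, and the summed list was 3397 to 4717 CPM in AP-2εCre cKO against 4645 to 8042 CPM, and 3731 to 5651 CPM in OMPCre cKO against 3063 to 5910 CPM. The 3 lists had lower sums in the AP-2εCre cKO libraries, with overlap for the ciliated and sustentacular lists, in which the neurogenesis and adhesion lists had their larger medians, and their part in the neuronal values was not tested.

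The remaining lists are set beside the 4.37% of all genes that were higher and the 5% that were lower at an unadjusted p under 0.05. Main olfactory neuron genes (15 tested) had 3 higher (20%) and 0 lower, with a median of 0.14 against flox/flox and -0.07 against Cre +/- controls. Immune genes (26) had 3 higher (11.5%) and 0 lower. Fibroblast, cartilage and bone genes (18) had 0 higher and 3 lower (16.7%), and unfolded protein response genes (26) had 0 higher and 3 lower (11.5%). Endothelial genes (17) had 0 higher and 1 lower, basement membrane genes (23) 2 and 1, and immediate early genes (30) 2 and 1. Ribosomal protein genes (75) had a median of 0 with 0 higher and 2 lower, and none of 90 respiratory chain genes had an unadjusted p under 0.05.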

How the data were processed

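VNO mRNA (polyA-selected, stranded, 75-base single reads) was quantified by the authors with salmon 0.14.0, per the labels, against Ensembl mouse transcripts (GRCm38). The deposited transcript tables hold estimated counts and TPM (length-corrected transcript abundance). The estimated counts were summed per gene with GENCODE GRCm38 annotation (116248 transcripts, 176 unmatched, at most 0.0324% of a library's counts; 35596 genes) and rounded. CPM are counts scaled to library size with TMM factors. Library totals were 43385516 to 134042284.

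edgeR 4.0.16 (R 4.3.3; filterByExpr, TMM, quasi-likelihood, Benjamini-Hochberg over 19465 genes) was fitted with 4 groups, and the mean of both line effects was tested. Log2 fold changes are cKO over controls, and a called gene has an adjusted p under 0.05. Single values were compared by an exact permutation test on log2(CPM + 0.5). Promoter windows were taken from RefSeq (GRCm38.p6). DESeq2 1.42.0, limma-voom 3.58.1, other filters, controls, covariates and left-out libraries were alternatives, and the code was tested on simulated data.

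Named genes were the called genes with at least 1 CPM, the same sign in each line and up to 12 of the largest rises and falls, 16 genes named by the study, called genes of 30 lists, and genes added after their values were seen, among them every uncalled gene given per-library values that the study does not name. The members and lists were chosen with earlier results of these data known. A total of 2 called genes are not reported here. Libraries of a group are labelled biological replicates. Lists were not tested as sets. A further 1 library with conflicting labels was left out.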

Additional observations from a re-analysis of the deposited data

Results flagged for a closer look

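In 134 groups of 6 control libraries (67 genes in each line), 12 had a library far from the other 5 by Dixon's 95% limit, where chance flags about 1 group in 20. Of the called genes, only Tmem255a was affected. It was at 6.96 CPM in OMPCre flox/flox replicate 2, against a control median of 4.13 CPM.

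AP-2εCre +/- replicate 1 was the far library for Tenm2 (53.6 CPM, median 78.6 CPM), Syt11 (204 CPM, median 287 CPM) and Itga6 (137 CPM, median 111 CPM). Nrp2 had a far library in both lines, at 249 CPM in AP-2εCre flox/flox replicate 3 (median 304 CPM) and at 380 CPM in OMPCre +/- replicate 3 (median 291 CPM). Elavl3 was low in OMPCre flox/flox replicate 2 (199 CPM, median 241 CPM), and Grhl1 was high in OMPCre flox/flox replicate 3 (51.9 CPM, median 32.6 CPM).

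The enamel genes were high in a single control library of each line. Amelx was at 86.5 CPM in AP-2εCre +/- replicate 2 (median 4.95 CPM) and at 84.3 CPM in OMPCre +/- replicate 2 (median 7.86 CPM). Mmp20 was at 1.11 CPM in the same libraries (medians 0.0706 and 0.134 CPM).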

How the results depend on the processing

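Against 18 genes called by edgeR, DESeq2 called 197 (80 higher and 117 lower), limma-voom 33, counts from length-scaled TPM 6, flox/flox controls alone 31 (15 higher, 16 lower), Cre +/- controls alone 55 (41 higher, 14 lower), a fit with 6 groups 40, the form of the library name (a letter and number, or a line code) as covariate 31, and the 12 letter-named libraries alone 11. Called genes with the same sign and an unadjusted p under 0.05 in each line numbered 16, and 93, 30, 5, 17, 49, 32, 29 and 10 in these settings in the same order. The 136 genes with an unadjusted p under 0.05 and the same sign in each line became 205 with Cre +/- controls alone. Genes called lower numbered 5 with limma-voom, 6 with 6 groups, 2 with the name form and 2 with a robust prior. DESeq2 size factors, both count filters, the robust prior and the pair of left-out controls gave 18 to 24 called genes. Named genes that differed between lines were 1 with DESeq2 and 0 otherwise. The cause of these changes was not tested.

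Leaving out each library in turn gave 8 to 33 called genes, 8 to 25 higher, 0 to 11 lower, 8 to 25 called with the same sign and an unadjusted p under 0.05 in each line, and 73 to 186 genes with those 2 properties regardless of the call. The count was 8 without OMPCre cKO replicate 3, 11 without AP-2εCre cKO replicate 3, 12 without AP-2εCre cKO replicate 2 or OMPCre cKO replicate 2, and 33 (11 lower) without AP-2εCre +/- replicate 1. It was 15 without AP-2εCre flox/flox replicate 3, where the Olfr464, Mymk and Pla2g16 calls were lost, and 22 without OMPCre flox/flox replicate 3.

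Deviations from the group means of libraries with the same replicate number had correlations of -0.339 to 0.208 in the AP-2εCre line (3 of 9 pairs positive) and 0.039 to 0.565 in the OMPCre line (9 of 9 positive, 7 over 0.1, mean 0.266 against -0.129 for other pairs). In the OMPCre line 7 of 9 libraries, and in the AP-2εCre line 1 of 9, correlated best with a library of their own number. The OMPCre values are a hint of pairing from the data alone, and the numbers were not taken as pairs. Replicate 3 of each OMPCre group was also the library named by a line code, so number and name form cannot be told apart there. The same-number pairs of replicates 1 and 2 had 0.039 to 0.44. In the AP-2εCre line the code-named libraries were flox/flox 3, Cre +/- 3 and cKO 1, with correlations of 0.208, 0.284 and 0.089. With the replicate block, 21 genes were called, 17 higher and 4 lower, 19 of them with the same sign and an unadjusted p under 0.05 in each line, and 12 of the 18 remained. The calls of Olfr464, Mymk, Slc1a2, Syt13 and Pla2g16 were among those lost (edgeR adjusted p of 0.0537 to 0.109).

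Values that changed sign belonged to uncalled genes near 0. Omp was 0.01 with limma-voom, 0.23 with Cre +/- controls, 0.03 with letter-named libraries and 0.06 without the pair of controls. Kirrel3 was -0.04 with length-scaled TPM and -0.13 with flox/flox controls. With flox/flox controls Adcy3 was 0.15 and Tfap2e -0.14, and Plcb2 was -0.01 with letter-named libraries. Without each library in turn, Omp ranged from -0.08 to 0.05, Kirrel3 from -0.07 to 0.06, Kirrel2 from -0.12 to 0.15, Adcy3 from -0.10 to 0.04, Plcb2 from 0.00 to 0.13 and Mki67 from -0.03 to 0.15. Of the values of the called genes named, 421 kept their direction and their side of the threshold and 90 kept the direction only. Depth limits genes under 1 CPM.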
